A study of Saccharomyces cerevisiae with 6 samples.

Results

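Autophagy genes of budding yeast (Saccharomyces cerevisiae) were examined in growing and in quiescent cells. The 36 genes were taken by systematic name and comprise the ATG genes and the phosphatidylinositol 3-kinase genes VPS34, VPS15 and VPS30. They are 36 of 6007 protein-coding rows in a table of 9891 features. Every one of them passed the filter on low values, which took the mean over all libraries. They were sorted by textbook role into 20 genes of the core machinery, 6 cargo receptors (ATG19, ATG32, ATG34, ATG36, ATG39 and ATG40) and 10 others. RNA was sequenced after removal of ribosomal RNA from 3 log-phase cultures, grown to an OD600 between 0.8 and 1.0, and from 3 preparations of quiescent cells, the dense cells that Percoll gradients separate from a starved culture, taken on day 7. All 6 came from strain YCH406, grown at 30 C in YPD with adenine and ampicillin. YCH406 is a MATa strain without its chromosomal H2A and H2B gene pairs, which LEU2 and TRP1 replace. It lives on HTA1-HTB1 from the plasmids pSAB6 (URA3) and pZS145 (HIS3, with a Flag tag), and its RNA polymerase II subunit is tagged as RPB3-9Myc::hphNT1. It also carries his3∆200, leu2∆1, ura3-52 and trp1∆. Log and quiescent cells share all of these alleles, so the values describe this strain and not a wild type.

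Autophagy carries cytoplasm to the vacuole, the degradative compartment of yeast, inside a double membrane that grows around its cargo. Starvation lowers the activity of the TORC1 kinase, the Atg1 kinase complex then assembles, Atg9 vesicles and lipid transfer build the membrane, and a lipid kinase marks it with phosphatidylinositol 3-phosphate. A ubiquitin-like protein, Atg8, is joined to the membrane lipid phosphatidylethanolamine, and receptors that bind both Atg8 and a cargo give the process its selectivity. Starvation is the classic setting in which yeast autophagy was discovered.

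Libraries held between 8894585 and 14213993 counts. The protein-coding share of TPM, counts per length scaled to a fixed sum, lay between 22.3% and 26.4% in log and between 5.53% and 9.17% in quiescent libraries, so the scale matters for every gene here. Levels below are normalized CPM (reads of a gene relative to the TMM-scaled library size) unless TPM is named. Of the state markers, all 6 stationary-phase genes rose and all 4 growth genes fell. Summed TPM of the 5 sporulation markers, whose reads could come from other cells, lay between 2.28 and 3.19 in log and between 2.49 and 4.46 in quiescent libraries, and that of the 3 alpha-cell markers between 5.58 and 6.17 and between 4.63 and 7.66. DIT1 alone among the sporulation markers was abundant enough to be tested, and rose. Of the alpha markers, 1 had no read in quiescent replicate 2. The part of such cells in the results was not tested. HTA2 and HTB2, labelled as deleted, had 11.1 ± 1.91 and 7.02 ± 1.59 CPM in log cells (SD, n = 3). In quiescent cells they had 12.1 ± 2.77 and 9.15 ± 2.975 CPM (SD, n = 3). They are close copies of HTA1 and HTB1, and whether reads of those genes were shared with them was not tested.

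Most autophagy genes were higher in quiescent cells, with the receptor genes ATG39 and ATG34 showing the highest fold changes among the 36 in the edgeR fit. By mean in log cells, ATG39 (0.684 TPM) and ATG34 (0.780 TPM) lay under the filter's floor of 1 TPM. They thus entered the test through their quiescent values. Of the 36 genes, 30 rose, 1 fell and 5 did not pass the edgeR quasi-likelihood test (adjusted p under 0.05 over all tested rows). The labels call the replicates biological but name no separate source for each, so p-values measure the spread between these libraries. Over all 5608 protein-coding genes tested, 31.8% rose and 41.0% fell. The median log2 fold change (quiescent minus log) of the 36 was 2.01, beside -0.21 for all genes. All 6 receptors rose, with a median of 3.32 and a range of 1.43 to 7.62. Of the 20 core genes, 16 rose and none fell, with a median of 1.96 and a range of -0.32 to 4.50. The other 10 gave 8 risen and 1 fallen, with a median of 1.51. The difference between receptors and core was not tested, since the lists were drawn up with results of these data known. In normalized CPM, every quiescent library lay above every log library for 29 of the 36 genes and below for 1, where the same held for 33.8% and 44.0% of all genes.

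**Figure D1:**
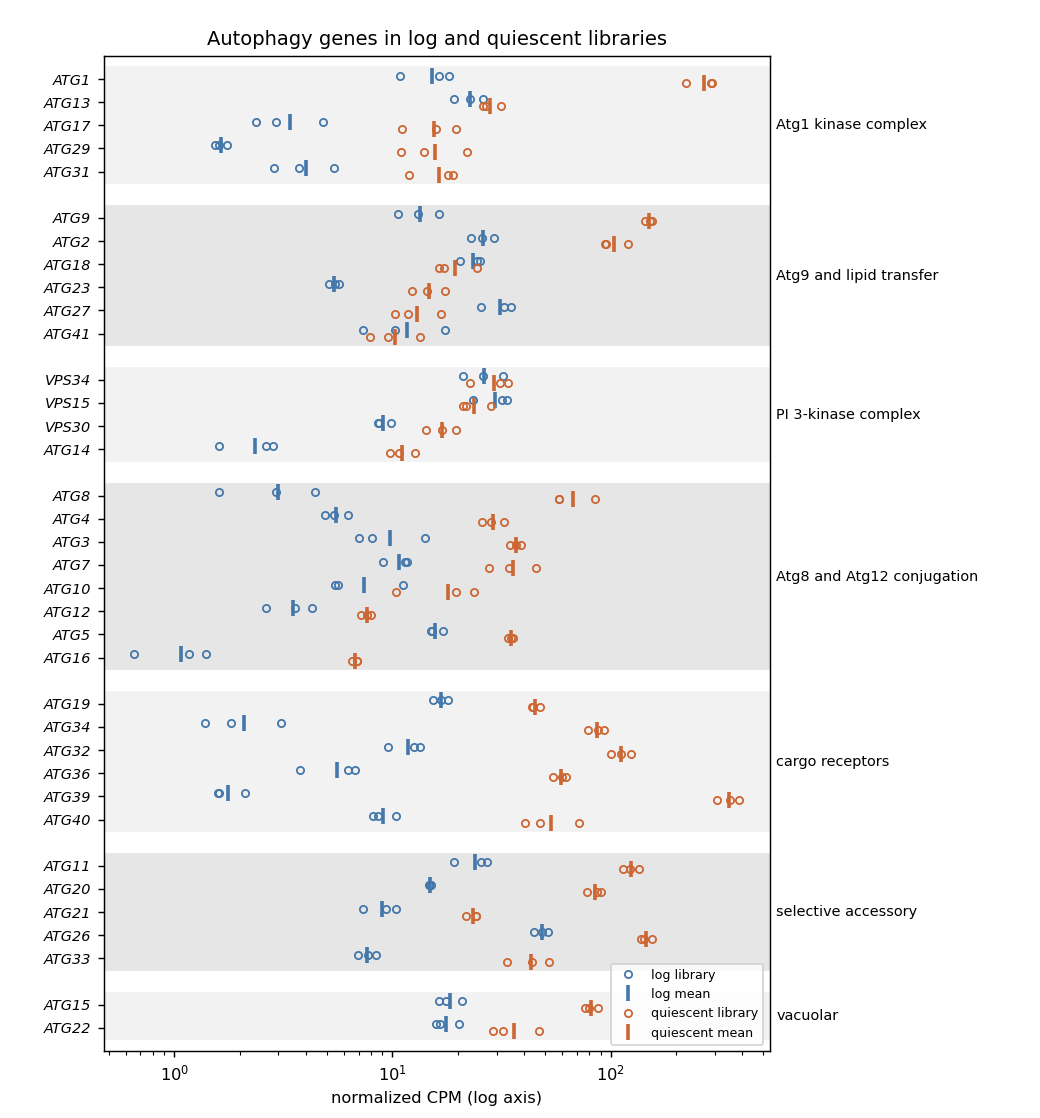
Normalized CPM on a log axis for each of the 36 autophagy genes, by role, with 1 circle per library and a vertical tick at the mean of the 3 log or 3 quiescent libraries. ATG39 went from the lower end of the plot to the highest quiescent level, and ATG27 is the gene whose quiescent circles all lie to the left of its log circles.

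On the TPM scale the picture was narrower. There, limma on log2(TPM + 1) called 20 of the 36 genes up and 5 down, beside 14.2% and 60.1% of all genes, and the medians were 0.78 for the 36 and -0.98 for all genes. The 5 that fell were ATG18, ATG27, ATG41, VPS34 and VPS15. Of the receptors, 5 rose on this scale, and of the core, 11 rose and 3 fell. The difference between the members' median and that of all genes was 2.23 in the first fit and 1.76 here. A fold change on the log2(TPM + 1) scale understates the change of genes with low TPM. Bulk RNA gives shares only, so a change in RNA per cell and a change in the share of a gene cannot be told apart.

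**Figure D2:**
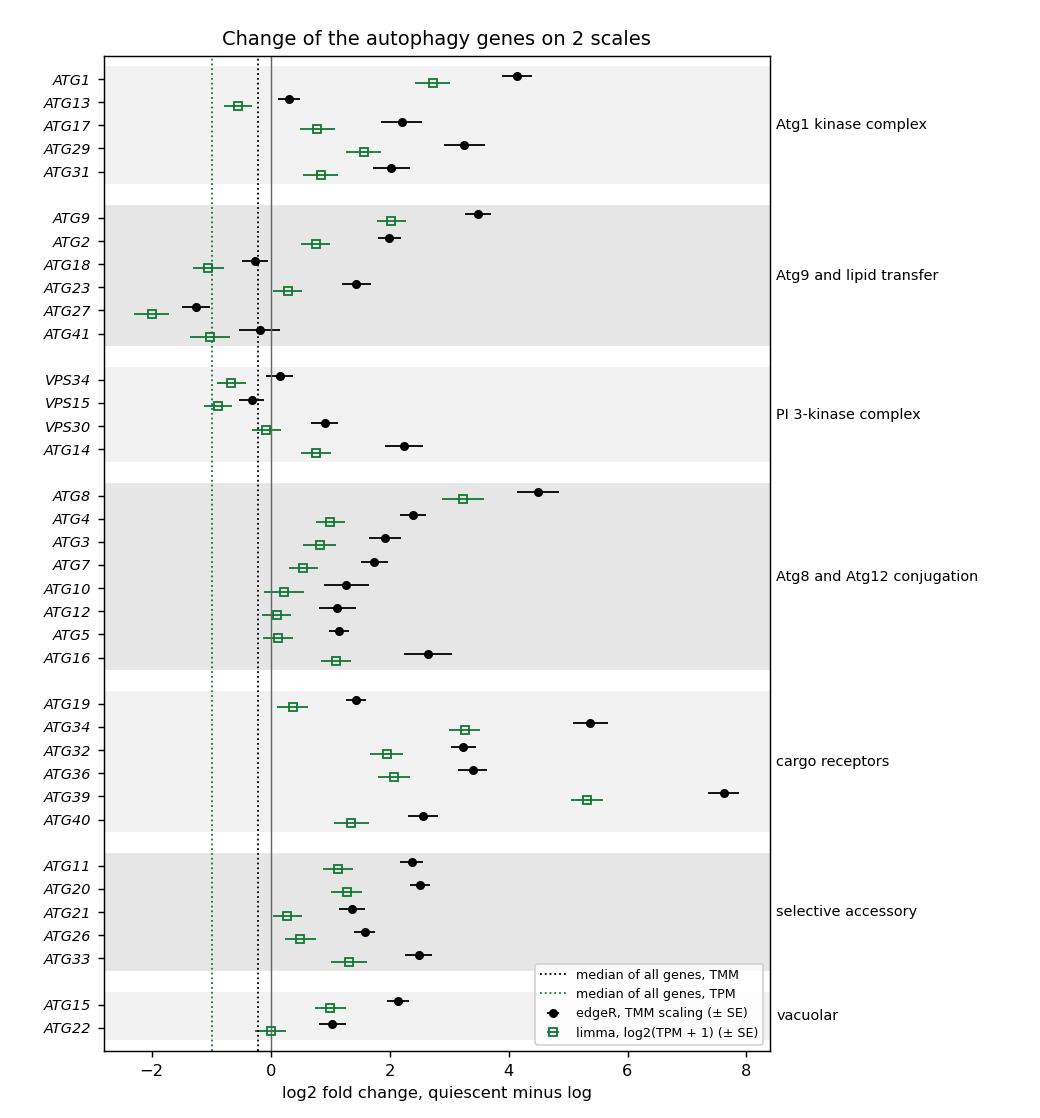
Log2 fold change, quiescent minus log, of each autophagy gene in the edgeR fit with TMM scaling (black circles) and in limma on log2(TPM + 1) (green squares), with bars of 1 SE and dotted lines at the median of all genes on each scale. The receptors reach 7.62 and the phosphatidylinositol 3-kinase genes VPS34 and VPS15 lie near 0 on the first scale and below it on the second.

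Ranks within a library do not depend on the scaling between libraries. As a share of protein-coding TPM, the 36 genes together held 0.0605%, 0.0746% and 0.0549% in the log libraries, against 0.507%, 0.599% and 0.471% in the quiescent ones. The 6 receptors held 0.00811%, 0.0094% and 0.00678% in log and 0.171%, 0.239% and 0.184% in quiescent libraries. The 20 core genes held 0.0264%, 0.0348% and 0.0239% in log and 0.231%, 0.233% and 0.19% in quiescent libraries, so the receptor share lay below the core share in every log library and on either side of it in quiescent ones. ATG39 alone gave 72.8, 78.4 and 51.3 TPM of the receptors' summed 157.1, 162.1 and 102.0 TPM in quiescent libraries. By TPM among the 6007 protein-coding rows, ATG39 moved from a median percentile of 6.5 in log to 97.7 in quiescent libraries, ATG34 from 7.1 to 88.4, ATG1 from 22.1 to 92.6 and ATG8 from 30.5 to 95.4. ATG27 moved from 74.9 to 50.5, ATG18 from 53.1 to 43.3 and VPS15 from 26.7 to 18.7. VPS34 (36.1 to 44.0) and ATG41 (65.4 to 67.7), which also fell on the TPM scale, moved up in median percentile. The percentile ranges of the log and quiescent libraries overlapped for ATG18, VPS15, VPS34 and ATG41 and were apart for ATG27.

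**Figure D3:**
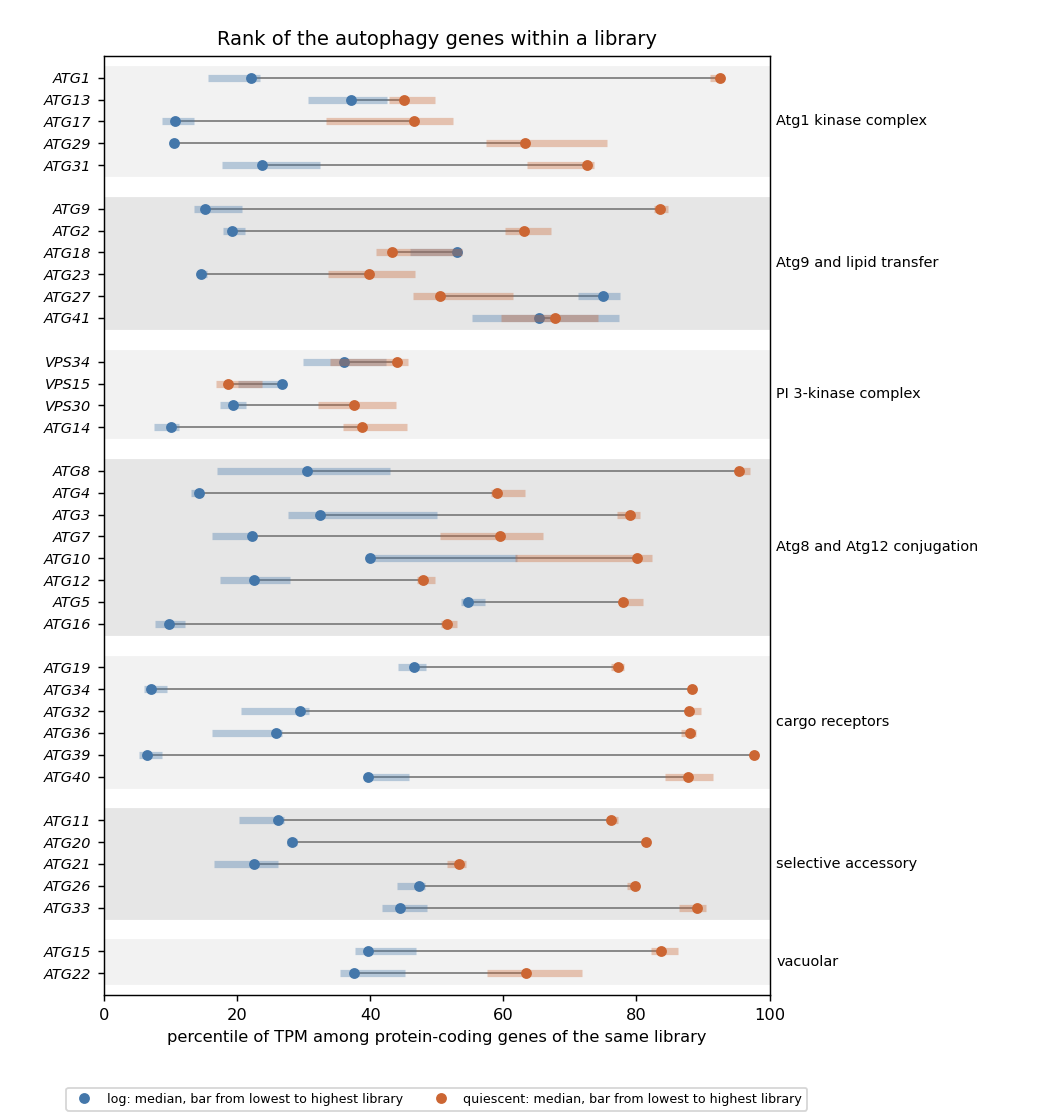
Percentile of each autophagy gene by TPM among the protein-coding rows of the same library, with a dot at the median of the 3 log (blue) or 3 quiescent (orange) libraries and a thick bar from the lowest to the highest. ATG39 spans 6.5 to 97.7, and the medians of ATG27, ATG18 and VPS15 move to the left, with overlapping bars for ATG18 and VPS15.

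The bases upstream of the start codon were read from the RefSeq R64 reference genome for all 36 genes, because transcriptional regulators of several ATG genes are known. Each window is the 250 bases before the start codon. Capitals mark matches, on either strand, to GCCGCC (the core of the URS1 element, which the repressor Ume6 binds), AGGGG (the stress response element of Msn2 and Msn4), GATAAG (a site of the nitrogen regulators Gln3 and Gat1) or TGACTC (the site of Gcn4). The windows of ATG8 (chrII:80732-80981, minus strand), ATG9 (chrIV:184675-184924, plus strand), ATG19 (chrXV:168477-168726, plus strand), ATG34 (chrXV:165464-165713, plus strand) and ATG39 (chrXII:758834-759083, minus strand) are shown, written 5′ to 3′ on the strand of the gene, since they belong to a core gene with all 4 motifs, the Atg9 gene, a pair of related receptors that differ in their change, and the gene of the largest rise.
ATG8: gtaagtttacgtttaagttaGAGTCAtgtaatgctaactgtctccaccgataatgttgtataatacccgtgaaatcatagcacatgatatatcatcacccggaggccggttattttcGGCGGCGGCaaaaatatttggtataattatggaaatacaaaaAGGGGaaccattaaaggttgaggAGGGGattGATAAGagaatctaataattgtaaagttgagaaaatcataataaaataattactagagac
ATG9: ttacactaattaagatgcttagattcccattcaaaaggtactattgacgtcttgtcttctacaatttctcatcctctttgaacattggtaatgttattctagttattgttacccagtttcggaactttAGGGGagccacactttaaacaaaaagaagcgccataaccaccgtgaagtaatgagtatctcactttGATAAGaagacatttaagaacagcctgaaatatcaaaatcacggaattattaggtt
ATG19: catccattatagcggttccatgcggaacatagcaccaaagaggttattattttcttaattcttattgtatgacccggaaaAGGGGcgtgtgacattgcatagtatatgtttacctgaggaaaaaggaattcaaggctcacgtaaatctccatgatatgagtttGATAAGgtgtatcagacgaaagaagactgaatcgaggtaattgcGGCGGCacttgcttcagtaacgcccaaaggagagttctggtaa
ATG34: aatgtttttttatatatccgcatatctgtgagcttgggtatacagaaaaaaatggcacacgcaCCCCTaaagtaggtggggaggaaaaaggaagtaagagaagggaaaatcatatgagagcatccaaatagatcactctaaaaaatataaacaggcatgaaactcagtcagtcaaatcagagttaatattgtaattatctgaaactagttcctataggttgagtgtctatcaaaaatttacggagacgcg
ATG39: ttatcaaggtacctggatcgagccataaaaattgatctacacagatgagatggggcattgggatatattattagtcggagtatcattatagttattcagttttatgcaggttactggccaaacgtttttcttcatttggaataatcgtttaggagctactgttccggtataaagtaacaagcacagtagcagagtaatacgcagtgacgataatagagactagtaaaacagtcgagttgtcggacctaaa

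GCCGCC was found in 2 of the 36 windows, those of ATG8 and ATG19, beside 4.18% of the 5987 windows of all nuclear protein-coding genes with a full window. In ATG8 it occurs in 2 overlapping copies, 124 and 127 bases upstream of the start codon, and the other 3 motifs occur in its window as well. AGGGG was found in 7 of the 36 and in 18.8% of all windows. GATAAG was found in 10 of the 36, among them ATG9, ATG32 and ATG40, and in 12.6% of all, and TGACTC in 5 of the 36 and in 6.26%. The window of ATG39 held none of the 4 motifs, and that of ATG34 held AGGGG only. A match is a description of the letters and not a binding site.

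Receptors tie a cargo to Atg8. ATG39 (YLR312C, chrXII:757637-758833, minus strand), the receptor for the nuclear envelope and perinuclear endoplasmic reticulum, had 1.61, 1.58 and 2.11 CPM across log replicates 1 to 3, against 308, 389 and 352.5 CPM across the quiescent ones. The groups lay far apart, with 19 to 29 reads in a log library and 3085 to 4455 in a quiescent one. Its log2 fold change was 7.62 (SE 0.26, adjusted p = 7.48e-08), and it was 5.33 on the log2(TPM + 1) scale. ATG40 (YOR152C), the receptor for cortical and cytoplasmic endoplasmic reticulum, had 8.54, 10.4 and 8.16 CPM in log and 40.5, 72.0 and 47.5 CPM in quiescent libraries. It rose by 2.56 (SE 0.25, adjusted p = 9.52e-06), with quiescent replicate 2 the highest library. Per length, ATG40 was above ATG39 in log cells (5.42 ± 0.723 and 0.684 ± 0.130 TPM) and below it in quiescent cells (16.0 ± 5.97 and 67.5 ± 14.3 TPM, SD, n = 3 each).

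ATG34 (YOL083W, chrXV:165714-166952, plus strand) and ATG19 (YOL082W, chrXV:168727-169974, plus strand) are neighbours with 1774 bases and no annotated gene between them. Atg19 delivers the aminopeptidase Ape1 and the mannosidase Ams1 in the cytoplasm-to-vacuole pathway, which also runs in growing cells, and Atg34 is a related receptor that delivers Ams1 in starvation. ATG34 had 1.82, 3.08 and 1.38 CPM in log libraries and 87.4, 93.45 and 78.8 CPM in quiescent ones. ATG19 had 16.7, 18.0 and 15.4 CPM in log libraries and 43.7, 47.4 and 44.1 CPM in quiescent ones. Neither gene's groups overlapped, and ATG34 went from below to above ATG19. ATG34 rose by 5.38 (SE 0.30, adjusted p = 2.12e-07) and ATG19 by 1.43 (SE 0.17, adjusted p = 3.98e-05). On the TPM scale ATG19 did not pass (0.37, adjusted p = 0.210) and ATG34 did (3.27). The coding sequences were identical at 63.9% of 1115 aligned bases and shared no stretch of 30 bases, and their translations were identical at 35.4% of 381 aligned residues.

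ATG32 (YIL146C) encodes the mitochondrial receptor of mitophagy and ATG36 (YJL185C) the peroxisomal receptor of pexophagy. ATG32 had 13.4, 9.49 and 12.5 CPM in log and 124, 111 and 99.9 CPM in quiescent libraries, a rise of 3.24 (SE 0.21, adjusted p = 4.78e-07). ATG36 had 6.23, 6.75 and 3.79 CPM in log and 54.7, 62.4 and 59.9 CPM in quiescent libraries, a rise of 3.40 (SE 0.25, adjusted p = 1.01e-06). Neither gene's groups overlapped. Per length in quiescent cells, ATG39 stood above the other receptors, while ATG32 (16.6 ± 5.56 TPM), ATG34 (16.4 ± 4.70), ATG40 (16.0 ± 5.97) and ATG36 (15.5 ± 3.17) lay within their spread of each other and ATG19 (8.41 ± 1.99) was the lowest by mean. In log cells the order was ATG19 (6.18 ± 0.441 TPM), ATG40 (5.42 ± 0.723), ATG32 (3.43 ± 0.581), ATG36 (2.92 ± 0.790), ATG34 (0.780 ± 0.328) and ATG39 (0.684 ± 0.130), with ATG19 and ATG40, ATG32 and ATG36, and ATG34 and ATG39 within their spread of each other.

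The Atg1 kinase complex starts the process, and its genes did not move alike. ATG1 (YGL180W, chrVII:160065-162758, plus strand), the protein kinase, had 16.4, 18.2 and 10.9 CPM in log and 289, 291 and 221 CPM in quiescent libraries. It rose by 4.14 (SE 0.26, adjusted p = 3.98e-07), with no overlap. ATG13 (YPR185W), the regulatory subunit that TORC1 phosphorylates, had 22.8, 19.2 and 26.0 CPM in log and 25.9, 31.4 and 26.9 CPM in quiescent libraries. Its groups overlapped and it did not pass (0.31, SE 0.19, adjusted p = 0.173), although scaling by TMM on the protein-coding rows brought a rise (0.52, adjusted p = 0.0345). Its TPM change was -0.55 and missed the threshold (adjusted p = 0.0525). The 3 scaffold genes rose. ATG29 (YPL166W) had 1.54, 1.75 and 1.60 CPM in log and 21.9, 14.0 and 10.9 CPM in quiescent libraries (3.25, SE 0.34, adjusted p = 1.46e-05). ATG17 rose by 2.21 (SE 0.35) and ATG31 by 2.03 (SE 0.32). ATG29 was the 1 member that overlaps another annotated gene, SET6, which had 7 to 22 reads in a library, and the strand setting of the counts is not known.

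Membrane supply showed the sole faller. ATG9 (YDL149W), a lipid scramblase carried on small vesicles, had 10.6, 13.2 and 16.4 CPM in log and 144, 155 and 152 CPM in quiescent libraries. It rose by 3.49 (SE 0.21, adjusted p = 3.58e-07) with no overlap. ATG27 (YJL178C, chrX:89282-90097, minus strand), a membrane protein that helps Atg9 traffic, had 34.8, 25.5 and 32.6 CPM in log and 16.8, 11.8 and 10.3 CPM in quiescent libraries. It fell by 1.26 (SE 0.24, adjusted p = 0.000870), with every quiescent library below every log library, and by 2.00 on the TPM scale. ATG23, a peripheral partner of Atg9 and Atg27, had 5.11, 5.66 and 5.46 CPM in log and 12.3, 17.5 and 14.4 CPM in quiescent libraries (1.44, SE 0.25, adjusted p = 0.000484). ATG41 (YPL250C), another factor of Atg9 transport, had 10.3, 17.4 and 7.36 CPM in log and 13.4, 7.86 and 9.55 CPM in quiescent libraries. Its groups overlapped and it did not pass (-0.19, SE 0.35, adjusted p = 0.653). ATG2 encodes the lipid transfer protein and ATG18 its partner, a propeller protein that binds phosphatidylinositol 3-phosphate. ATG2 rose by 1.99 (SE 0.19) from 26.0 ± 3.20 to 103 ± 14.3 CPM. ATG18 (YFR021W) had 24.3, 20.3 and 25.3 CPM in log and 24.5, 17.3 and 16.3 CPM in quiescent libraries, which overlapped, and did not pass (-0.27, SE 0.22, adjusted p = 0.299). In TPM, ATG18 (-1.04, adjusted p = 0.00209) and ATG41 (-1.02, adjusted p = 0.0117) fell, where the median of all genes was -0.98.

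The phosphatidylinositol 3-kinase is a complex of Vps34, the lipid kinase, Vps15, its regulatory kinase, Vps30 and a subunit that sets its place. Atg14 directs it to autophagy and Vps38 directs it to endosomes. ATG14 (YBR128C) had 1.61, 2.83 and 2.62 CPM in log and 10.8, 12.8 and 9.77 CPM in quiescent libraries, a rise of 2.24 (SE 0.32, adjusted p = 0.000139) without overlap. VPS30 rose by 0.91 (SE 0.23, adjusted p = 0.00481), a call lost with total-count scaling (0.69, adjusted p = 0.0773) and on the TPM scale (-0.069, adjusted p = 0.814). VPS34 (YLR240W) had 25.9, 32.1 and 21.0 CPM in log and 33.8, 22.8 and 31.0 CPM in quiescent libraries, and VPS15 (YBR097W) had 31.7, 33.4 and 23.5 CPM and 20.95, 21.7 and 28.4 CPM. Both overlapped between the groups. VPS34 (0.15, SE 0.23, adjusted p = 0.572) and VPS15 (-0.32, SE 0.21, adjusted p = 0.205) did not pass, while in TPM both fell (changes of -0.66, adjusted p = 0.0260, and -0.88, adjusted p = 0.00310). VPS38 did not pass in edgeR (0.19, SE 0.27, adjusted p = 0.566) and fell in TPM (-0.54, adjusted p = 0.0488). The median of all genes in TPM was -0.98, below the changes of VPS34, VPS15 and VPS38. That scale understates the change of genes with low TPM, and VPS15 went from 3.12 ± 0.519 to 1.23 ± 0.115 TPM. In median percentile VPS34 (36.1 to 44.0) and VPS38 (18.1 to 20.3) moved up and VPS15 moved down (26.7 to 18.7). The percentile ranges of the groups overlapped for each.

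All 8 genes of the ubiquitin-like conjugation systems rose. ATG8 (YBL078C, chrII:80378-80731, minus strand) had 2.94, 4.41 and 1.60 CPM in log and 85.2, 57.9 and 58.3 CPM in quiescent libraries, with no overlap. It rose by 4.50 (SE 0.35, adjusted p = 1.71e-06), from 22 to 53 reads in a log library to 543 to 854 in a quiescent one. ATG4, the protease that matures and releases Atg8, rose by 2.39 (SE 0.22) and ATG3, which conjugates Atg8, by 1.92 (SE 0.27). ATG7 (YHR171W), the activating enzyme of both systems, had 11.6, 9.08 and 11.4 CPM in log and 27.8, 45.5 and 34.2 CPM in quiescent libraries (1.75, SE 0.23, adjusted p = 7.94e-05). In the Atg12 system, ATG12 rose by 1.12 (SE 0.31), ATG5, to which Atg12 is joined, by 1.15 (SE 0.17), and ATG10, the enzyme that joins them, by 1.27 (SE 0.38, adjusted p = 0.0124). ATG10 overlapped between the groups, and its call was lost without quiescent replicate 1 (1.04, adjusted p = 0.0533). ATG16, which binds the Atg12-Atg5 conjugate, rose by 2.64 (SE 0.41) from 9 to 20 reads in a log library. ATG12 also lost its call with total-count scaling (0.88, adjusted p = 0.0697). On the TPM scale ATG7 (0.55), ATG10 (0.23), ATG12 (0.10) and ATG5 (0.12) did not pass.

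The remaining factors rose. ATG11, the scaffold of selective autophagy that receptors bind, rose by 2.37 (SE 0.20) from 23.9 ± 4.26 to 124 ± 10.4 CPM. ATG20, a sorting nexin, rose by 2.51 (SE 0.17), ATG33, a mitochondrial outer membrane protein of mitophagy, by 2.49 (SE 0.22), and ATG21, a relative of Atg18 that recruits the conjugation machinery, by 1.37 (SE 0.22). ATG26, a sterol glucosyltransferase that pexophagy needs in the yeast Komagataella phaffii, rose by 1.58 (SE 0.17) from 48.4 ± 3.54 to 145 ± 9.18 CPM. At the vacuole, ATG15, the lipase that opens the inner vesicle, rose by 2.15 (SE 0.19), and ATG22, an amino acid exporter, by 1.04 (SE 0.23). Of these, ATG21 (0.28), ATG26 (0.50), ATG22 (0.01) and ATG23 (0.29) did not pass on the TPM scale.

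Because several partners differed in their change, 8 ratios of TPM were taken within each library, where scaling between libraries cancels. The pairs were chosen with these values known. ATG34 over ATG19 was 0.110, 0.173 and 0.0907 in log and 2.02, 1.99 and 1.80 in quiescent libraries. ATG1 over ATG13 was 0.593, 0.780 and 0.343 in log and 9.16, 7.65 and 6.76 in quiescent libraries. In both, all quiescent libraries lay above 1 and all log libraries below it. ATG9 over ATG27 was 0.0827, 0.141 and 0.137 in log and 2.33, 3.57 and 4.02 in quiescent libraries, a 27.6-fold difference of the geometric means. ATG8 over ATG12 differed 10.8-fold, ATG2 over ATG18 4.84-fold, ATG14 over VPS34 4.34-fold and ATG14 over VPS38 4.28-fold. In these 7 ratios the quiescent libraries were higher without overlap, and the exact two-sided permutation p was 0.1 for each (0.114 after Benjamini-Hochberg adjustment over 8 ratios), the smallest that 3 against 3 libraries allow. The scaffold ratio ATG17 over ATG11 overlapped between the groups, at 0.265, 0.501 and 0.431 in log and 0.449, 0.334 and 0.275 in quiescent libraries (exact permutation p = 0.8).

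**Figure D4:**
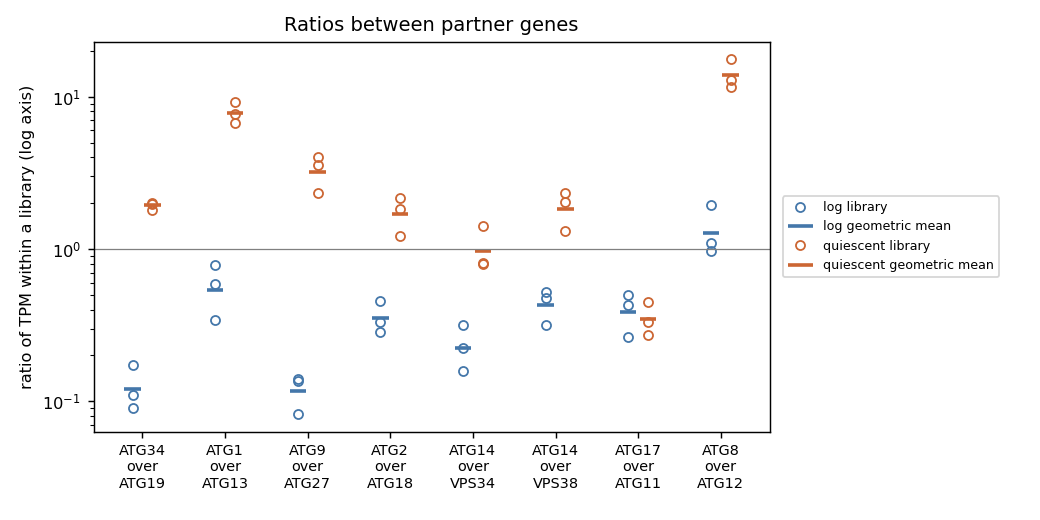
Ratio of TPM between 2 genes within each library, on a log axis, for 8 pairs, with 1 circle per library and a bar at the geometric mean of the 3 log (blue) or 3 quiescent (orange) libraries. The circles of the groups are apart in 7 pairs and overlap for ATG17 over ATG11.

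Genes around the machinery gave both rises and falls, and their counts are read against the 31.8% of all genes that rose and the 41.0% that fell. Of 15 transcriptional regulators linked to ATG genes, 6 rose and 3 fell (median 0.10, where all genes gave -0.21). The repressor gene UME6 rose by 1.28 (SE 0.23), and SIN3, a corepressor that works with it, fell by 1.00 (SE 0.18). UME6 did not pass in limma on the TPM scale (0.21, adjusted p = 0.5075). RPH1, a repressor of ATG7 and other ATG genes, rose by 1.94 (SE 0.18) and its relative GIS1 by 3.59 (SE 0.28). PHO23, a repressor of ATG9, did not pass (0.67, SE 0.28, adjusted p = 0.0589). Of 20 upstream signalling genes, 10 rose and 3 fell (median 0.41). TPK2, a protein kinase A catalytic gene, rose by 2.69 (SE 0.19), while TPK3, another catalytic gene of that kinase, fell by 1.00 (SE 0.33). SNF4, the activating subunit of the Snf1 kinase, fell by 1.39 (SE 0.19). On the TPM scale, 2 of the regulators rose and 8 fell, and 2 of the signalling genes rose and 10 fell, beside 14.2% and 60.1% of all genes.

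Of 20 accessory factors of membrane traffic and organelle division, 5 rose and 11 fell (median -0.57), beside the same 31.8% and 41.0% of all genes. FIS1, for mitochondrial and peroxisomal division, rose by 2.00 (SE 0.29) and VPS21, an endosomal Rab GTPase, by 1.33 (SE 0.21). VPS21 did not pass in limma on the TPM scale (0.30, adjusted p = 0.353). SSO2, a plasma membrane SNARE with the close copy SSO1, fell by 3.50 (SE 0.24), and ARP2, of the actin-nucleating Arp2/3 complex, by 1.57 (SE 0.17). Of 19 genes of fusion with the vacuole and breakdown in it, 4 rose and 5 fell (median -0.12). The protease gene PRB1 rose by 3.93 (SE 0.27) and AVT3, an amino acid exporter of the vacuole, by 1.67 (SE 0.20), while the vacuolar Rab gene YPT7 fell by 1.12 (SE 0.18) and the SNARE gene YKT6 by 0.76 (SE 0.17). AVT3 did not pass in limma on the TPM scale (0.61, adjusted p = 0.0703). The protease gene PEP4 did not pass (0.41, SE 0.20, adjusted p = 0.0926). Of the cargo enzyme genes, AMS1 and APE1 moved, in opposite directions. AMS1, the mannosidase, went from 14.4 ± 1.55 to 453 ± 27.6 CPM (4.97, SE 0.22, adjusted p = 1.26e-07), and APE1, the aminopeptidase, from 42.0 ± 2.85 to 25.7 ± 6.50 CPM (-0.71, SE 0.21, adjusted p = 0.0129). The cargo enzyme genes APE4 (0.24) and LAP3 (-0.32) did not pass in edgeR. In TPM, APE4 (-0.72, adjusted p = 0.0473) and LAP3 (-1.30, adjusted p = 0.00256) fell, so that 1 of the 4 cargo enzyme genes rose and 3 fell on that scale, where 60.1% of all genes fell.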

How the data were processed

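Raw counts per feature, with a feature length, were deposited in a single table, per the file headers. Per the submitters' processing notes the build was R64, and R64 is also the reference read here. Reads came from an Ion Proton instrument, per the labels' protocols, which call the replicates biological. For aligner, counter and strand, the setting is not given in the sources used. A further 6 columns of per-sample TPM were not used; TPM was recomputed from counts and lengths. No feature among the deposited counts is named ERCC, so the ERCC spike-ins that the protocols name could not be used here.

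Rows entered the test at mean TPM 1 or above over all libraries (7305 rows, 5608 protein-coding). The main test was edgeR 4.0.16 (R 4.3.3), quasi-likelihood, two-sided, TMM over the tested rows, no covariate, with Benjamini-Hochberg adjustment over all tested rows and a threshold of 0.05. Each SE is the log2 fold change over the root of its F value. Limma 3.58.1 on log2(TPM + 1) and DESeq2 1.42.0 were alternatives. The fits were tested on simulated data, where edgeR called 99% of 100 genes changed by 2 on the log2 scale and 34% of 100 changed by 1, in 7305 rows simulated for quiescent minus log. False calls made up 1.48% of calls for edgeR, 3.97% for limma and 8.16% for DESeq2. Only those genes changed there, evenly up and down, and they were drawn from genes above a count floor. In the data 31.8% of genes rose and 41.0% fell, so the simulated rates may not hold for them. Genes were named by role and size of change: the receptors, ATG1, ATG7, ATG8, ATG9, ATG14, the 4 highest and 4 lowest changes, those not passing, and from other lists the 2 called genes of largest change in each direction with at least 10 TPM, plus 8 set genes. VPS38, TPK3, APE4 and LAP3 were added after their values were seen. Of the genes this rule names, 1 is not reported here. A planned search for Atg8-binding motifs in receptor proteins was not run. Members and lists were chosen with earlier results of these data known.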

Additional observations from a re-analysis of the deposited data

How the results depend on the processing

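Of the 36 members, 30 rose with median-of-ratios size factors, DESeq2, no filter or the replicate block, 31 with TMM from protein-coding genes, 28 with total-count scaling and 20 on the TPM scale, and 29 or 30 rose when any single library was left out. Of the 5608 protein-coding genes tested, 1830 rose with median-of-ratios size factors, 1846 with DESeq2 and 1681 with the replicate block. TMM from protein-coding genes gave 2012 risen, total-count scaling 1370 and the TPM scale 799. With no filter 1648 of 5973 genes rose, and without a single library between 1586 and 1762. With a filter of 10 TPM, 7 members were tested, and 6 members, 2 core genes and 3 receptors rose. The filter took the mean over all libraries. Those 6 members lay under 10 TPM by mean in log cells, so they entered through their quiescent values. ATG27 entered through its log values (17.5 TPM by mean). The directions and medians at this filter are therefore no separate evidence. There, 1 of 3 regulators rose and 1 fell, and 5 of 7 signalling genes rose and 1 fell. Of 12 accessory genes, 5 rose and 2 fell, and of 9 vacuole genes, 6 rose and 1 fell. Of 3 cargo enzymes, 2 rose. Among the 2030 protein-coding genes tested at this filter, 669 rose and 1001 fell. The medians were 4.79 for the core and 3.73 for the receptors. On the TPM scale 5 members fell. The lists gave 2 risen and 8 fallen (regulators), 2 and 10 (signalling), 2 and 12 (accessory), and 1 and 10 (vacuole). Over all genes, 14.2% rose and 60.1% fell on that scale. The medians were 0.76 for the core and 2.01 for the receptors. ATG13 (-0.55), VPS34 (-0.66), VPS30 (-0.069), PEP4 (-0.60) and PHO23 (-0.25) changed sign there. With TMM from protein-coding genes, 11 signalling genes rose and 1 fell, and 8 accessory genes rose and 8 fell. In that fit 7 vacuole genes rose and 3 fell, and 2012 of 5608 protein-coding genes rose and 2080 fell. ATG41 lay at 0.02 and the receptor median at 3.52. DESeq2 called 8 accessory genes upward and 11 downward. The core median was 1.71 with total-count scaling, where VPS34 lay at -0.079. The receptor median was 3.09 with total-count scaling, 3.17 with no filter and 3.38 with median-of-ratios size factors and with DESeq2.

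Without single libraries, the receptor median ranged from 3.27 to 3.40. Fallen signalling genes ranged from 1 to 3, fallen accessory genes from 7 to 11 and fallen vacuole genes from 3 to 5. Risen ones ranged from 8 to 11, from 4 to 7 and from 4 to 5 in the same order. Among all protein-coding genes tested, between 2124 and 2314 fell. ATG41 ranged from -0.40 to 0.21, and turned positive without log replicate 2. The log2 ratio difference ranged from 3.81 to 4.28 for ATG34 over ATG19, from 3.52 to 4.11 for ATG1 over ATG13 and from -0.43 to 0.03 for ATG17 over ATG11. These ratio alternatives were chosen after the data were seen. Fewer genes were tested at 10 TPM by construction, and the cause of the other shifts was not tested. Fallen signalling genes numbered 1 without log replicate 1, log replicate 3 or quiescent replicate 3, fallen accessory genes 7 without quiescent replicate 3, and fallen vacuole genes 3 without any log replicate or without quiescent replicate 2.

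Same-numbered libraries did not deviate together (r = 0.0444, -0.0846 and -0.0409 for numbers 1, 2 and 3), so the numbers were not taken to pair samples. With the replicate block, 30 members rose and 1 fell as before, and 3 vacuole genes fell in place of 5. Low counts limit ATG8, ATG12, ATG14, ATG16, ATG17, ATG29, ATG31, ATG34 and ATG39 in log cells. No interval of counting error is given, and such an interval would not cover other sources.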
